A study of Mus musculus with 12 samples.

Results

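Carboxylesterases are the enzymes that liver uses to cleave ester and amide bonds in stored fats, drugs and other foreign compounds, and 10 of their genes are described here in livers with and without an excess of Mir483. The genes were taken by name from the count table: Ces1b, Ces1c, Ces1d, Ces1e, Ces1f, Ces1g, Ces2a, Ces2e, Ces3a and Ces3b, which are 10 of 55401 rows and 10 of the 20 genes whose annotated symbol is Ces followed by a digit. All 10 were among the 13205 genes with enough counts for testing.

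Liver RNA of 12 female mice aged 15 weeks was sequenced, 6 labelled iTgMir483 and 6 labelled Control. iTgMir483 mice carry 1 added copy of Mir483, a microRNA gene that normally lies inside Igf2, at the Rosa26 locus. The copy is under a Tet-off switch, in which a tetracycline-controlled transactivator drives transcription unless doxycycline is present. In the post-natal design, doxycycline was in the drinking water during pregnancy and was then withdrawn, so that the transgene was active after birth. The selection cassette of the targeted allele was removed with CMV-Cre, a recombinase active in all tissues, carried by mothers homozygous for it; the Cre genotype of each liver is not given in the labels. Neither Rosa26 nor CMV-Cre is restricted to hepatocytes, and the mice were on a C57BL/6J background with littermates as controls. Livers of separate mice served as replicates, n = 6 in each group.

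The mouse carboxylesterases fall into subfamilies that arose by repeated duplication, and most members are located inside the endoplasmic reticulum. The Ces1 enzymes handle triacylglycerol, cholesteryl esters and many ester drugs, and Ces1d is also known as triacylglycerol hydrolase, which mobilises stored fat for very low density lipoprotein. Ces2 enzymes are typical of intestine and liver, and the Ces3 enzymes are best known from liver.

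All Ces genes lie on chromosome 8 (GRCm38) in 2 groups. Ces1a to Ces1h and Ces5a occupy the minus strand between 93020214 and 93535830. Ces2a to Ces2h, Ces3a, Ces3b and Ces4a occupy the plus strand between 104734003 and 105150109. The 10 genes have coding sequences of 1662 to 1713 bases, and identity between them bears on how well reads can be told apart. Coding identity was 72.0% to 88.7% over the 15 pairs within Ces1, 83.1% between Ces2a and Ces2e, 95.3% between Ces3a and Ces3b, and 53.9% to 58.6% over the 28 pairs of different subfamilies.

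The reads were 50 bases long at each end, so all 50-base stretches of each gene's transcripts were looked up in the transcripts of other genes. Ces3a and Ces3b shared 25.6% and 26.2% of their stretches, each solely with the other. Ces2a shared 17.3%, mostly with the transcribed pseudogene Gm7208, while Ces1c shared 13.0% and Ces1b 11.6%, mostly with each other. For Ces1d, Ces1e, Ces1f, Ces1g and Ces2e the share was 0.903% to 3.30%. Counts of the first 5 genes are therefore less certain than those of the last 5, although the second read of a pair can place a shared first read.

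Ces1b and Ces1c were the closest pair within Ces1, and their promoters are shown because the genes behaved differently in these livers. The RefSeq windows (GRCm38.p6) run from 250 bases before to 50 bases after the annotated start, on the minus strand. A further Ces1b window, from an upstream start at 93080017 where the gene model used for counting begins, was not aligned. The identity below holds for the window printed here only. Both are written 5′ to 3′, and capitals mark bases that differ from, or have no partner in, the other window.
Ces1b (chr8:93079891-93080190): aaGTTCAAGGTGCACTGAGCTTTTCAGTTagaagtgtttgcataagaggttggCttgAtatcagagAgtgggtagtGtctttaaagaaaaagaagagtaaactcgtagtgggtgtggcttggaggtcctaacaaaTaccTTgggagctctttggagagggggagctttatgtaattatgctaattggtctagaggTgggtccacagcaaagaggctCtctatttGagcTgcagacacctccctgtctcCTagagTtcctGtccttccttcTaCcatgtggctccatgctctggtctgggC
Ces1c (chr8:93131234-93131533): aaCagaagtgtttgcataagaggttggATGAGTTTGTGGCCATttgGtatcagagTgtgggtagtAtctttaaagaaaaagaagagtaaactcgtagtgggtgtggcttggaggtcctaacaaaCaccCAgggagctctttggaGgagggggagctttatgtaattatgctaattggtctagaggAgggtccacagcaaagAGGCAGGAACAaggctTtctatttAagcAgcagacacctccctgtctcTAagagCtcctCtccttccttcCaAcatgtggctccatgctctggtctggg
The alignment had 255 identical bases in 327 columns (78.0%), with 45 bases of each window in capitals. The longest runs of capitals lie near the 5′ end of the Ces1b window and inside the Ces1c window. At the 3′ end only the last base of the Ces1b window has no partner. Of the 21 pairs among the 7 members with a window, the next most alike was Ces2a with Ces2e, at 54.9%.

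The microRNA was examined as the check on the labels. Mir483 had 0 counts in each Control library, and 373, 761, 442, 318, 697 and 618 counts in iTgMir483 replicates 1 to 6. Since the libraries were made from poly(A) RNA, such counts do not measure the mature microRNAs. The mature products are printed with the seed, bases 2 to 8, in capitals (RefSeq, GRCm38.p6, chromosome 7, minus strand).
mmu-miR-483-3p: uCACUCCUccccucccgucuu
mmu-miR-483-5p: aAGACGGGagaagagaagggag
Among the longest annotated 3′ UTRs of the members, of 150 to 958 bases, 1 of 10 held the 7-base match to the miR-483-3p seed, AGGAGTG, and 0 of 10 that to the miR-483-5p seed, CCCGTCT. Over the 12098 tested genes with such a UTR the shares were 12.6% and 3.26%, at a median length of 1164 bases. The match lies in Ces3b (chr8:105093725-105093731, plus strand) and is shown with its flanks, the match in capitals.
Ces3b: tagaggcaAGGAGTGacatacag
The Ces3a 3′ UTR, of 310 bases, held none, and Ces1b, Ces1d, Ces1e and Ces1g had no match to either seed.

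Depth and tissue identity were checked before the members were compared. Library totals ran from 12244123 to 30431286 counts in Control and from 12415140 to 15846175 in iTgMir483. Albumin (Alb), the main secreted protein of hepatocytes, had 93613 to 135525 CPM, counts scaled to a common library total, in Control and 35996 to 107837 in iTgMir483. The replicate 1 libraries stood apart in both groups by Mup20, a major urinary protein, at 437 CPM against 11.7 to 35.2 in the other Control libraries and at 80.1 CPM against 5.06 to 13.4 in the other iTgMir483 libraries. Where they changed a call or the overlap of the groups, values without them are given. CPM values here use the TMM (trimmed mean of M-values) library size.

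The family as a whole was at a lower summed CPM in the iTgMir483 libraries. The 10 genes summed to 6050.2 to 7452 CPM in Control, with a median of 7165, and to 4003 to 5697 CPM in iTgMir483, with a median of 4154. These ranges do not overlap, and the mean in iTgMir483 was 64.2% of the Control mean. Both values rest on the TMM scaling. As a share of raw counts the members took 0.540% to 0.725% in Control and 0.410% to 0.549% in iTgMir483. Those ranges overlap, and the mean share in iTgMir483 was 70.7% of the Control mean share. The subfamilies contributed differently. The 6 Ces1 members summed to 5042 to 6589 CPM in Control and 3546 to 5235 in iTgMir483, the latter maximum in replicate 4. The 2 Ces3 members summed to 472 to 1680.0 CPM in Control and 71.3 to 416 in iTgMir483, without overlap, and the 2 Ces2 members to 247 to 507 and 303 to 368. In bulk liver, fewer cells of a type and less RNA per cell cannot be told apart.

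Of the 10 members, 6 fell in iTgMir483 livers and 0 rose. A gene was called at a Benjamini-Hochberg adjusted p under 0.05 over all genes tested and a fold change over 1.5, by edgeR's quasi-likelihood F-test. By that rule 2.73% of all genes tested were lower and 8.41% were higher. The 6 were Ces1b, Ces1d, Ces1e, Ces1g, Ces3a and Ces3b, that is 4 of 6 Ces1 members, 0 of 2 Ces2 members and 2 of 2 Ces3 members. The remaining 4 were Ces1c, Ces1f, Ces2a and Ces2e. The median log2 fold change of the members was -0.68, against 0.01 over all genes tested, and 9 of 10 had a negative value.

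**Figure D1:**
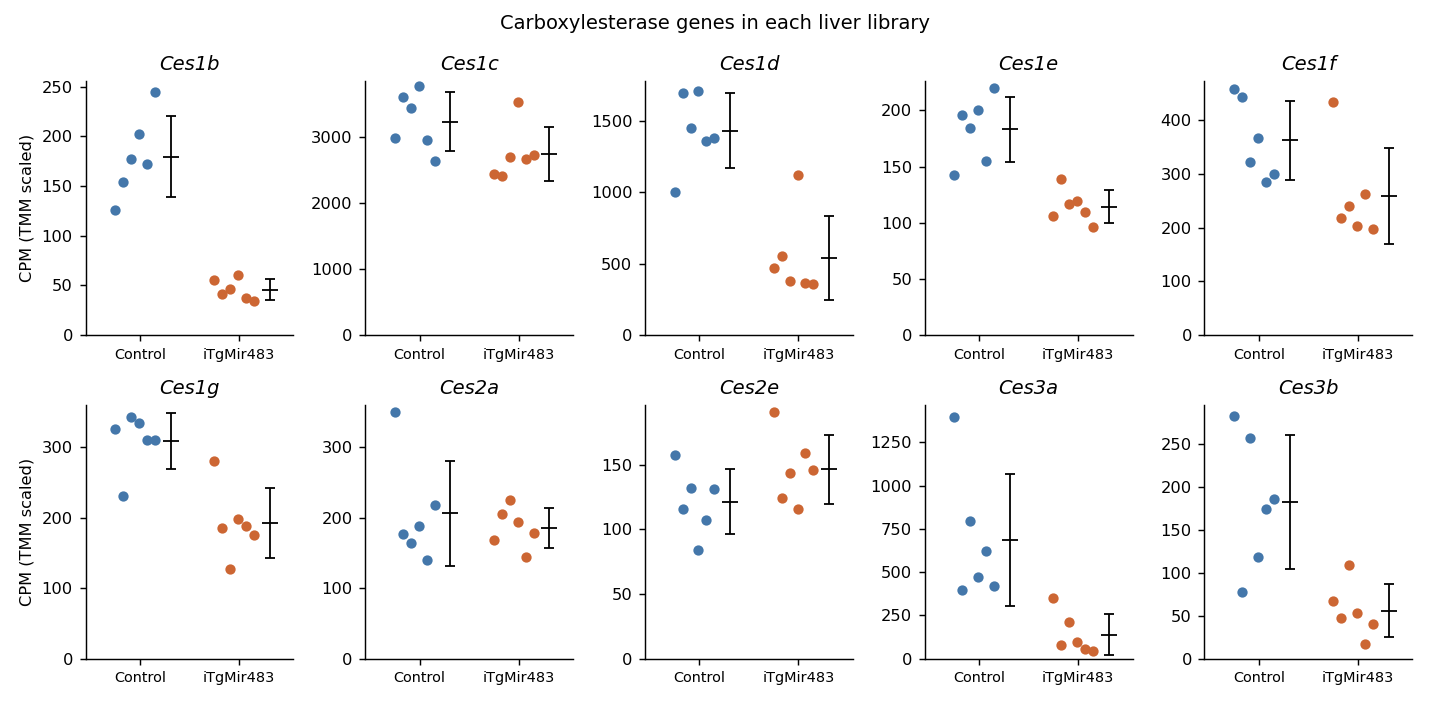
CPM of each member in every library (points, 6 per group), with the mean and SD beside each group; every vertical axis starts at 0. The groups do not overlap for Ces1b, Ces1e and Ces3a, 1 iTgMir483 library enters the Control range for Ces1d, and the Ces2a and Ces2e groups overlap.

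Ces3a had the largest change. It was at 394 to 1397 CPM in Control livers, with a median of 549, and at 43.0 to 348 CPM in iTgMir483 livers, with a median of 89.2. Every iTgMir483 liver was below every Control liver, and both extremes on the high side were the replicate 1 libraries. This gave a log2 fold change of -2.30 (SE 0.499, 95% interval -3.36 to -1.23, adjusted p 0.00649 by edgeR), or 4.92-fold lower. Without Control replicate 1 it was -1.96, and without both replicate 1 libraries -2.48.

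Ces3b, its neighbour on the chromosome, followed. Control livers had 78.0 to 283 CPM, with a median of 180.2, and iTgMir483 livers 17.0 to 109.9, with a median of 50.9. In 5 of 6 iTgMir483 livers the value was below every Control liver, and replicate 3, the highest of its group, lay above the lowest Control. On the log2 scale the difference was -1.70 (SE 0.380, interval -2.51 to -0.89, adjusted p 0.00759). The spread among Control livers was wide for both Ces3 genes, with a coefficient of variation of 55.5% for Ces3a and 42.9% for Ces3b, against 13.0% to 36.3% for the other members.

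Ces1b, a microsomal esterase of the Ces1 group, had the change best resolved from the spread. The 6 Control livers had 126, 154, 177, 202, 172 and 245 CPM, and the 6 iTgMir483 livers had 55.3, 41.4, 46.4, 60.4, 37.2 and 33.9 CPM. The highest iTgMir483 value was under the lowest Control value by more than the width of the iTgMir483 range. The log2 fold change was -1.97 (SE 0.175, interval -2.35 to -1.60, adjusted p 1.66e-05), 3.92-fold lower, and among all genes with a negative log2 fold change Ces1b ranked 2 by p-value.

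Ces1d, the triacylglycerol hydrolase, fell from a Control range of 998 to 1704 CPM, with a median of 1411, to 361 to 1117 CPM in iTgMir483, with a median of 425. A single iTgMir483 liver, replicate 4 at 1117 CPM, entered the Control range, and the next highest was at 552. Its log2 fold change was -1.40 (SE 0.267, interval -1.97 to -0.83, adjusted p 0.00335), and -1.75 without that library. The transcript model Gm45909 lies inside Ces1d on the same strand, and its log2 fold change was -0.71 (adjusted p 0.316).

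Ces1e and Ces1g fell by smaller amounts. Ces1e is also called egasyn and holds beta-glucuronidase (Gusb) in the endoplasmic reticulum. It was at 143 to 220.0 CPM in Control, with a median of 190.3, and 96.1 to 139 in iTgMir483, with a median of 113, without overlap (log2 fold change -0.68, SE 0.122, adjusted p 0.00246). Its partner Gusb had a log2 fold change of 0.24 (adjusted p 0.256), with 37.1 ± 4.77 CPM in Control and 43.7 ± 9.64 in iTgMir483 (SD, n = 6).

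Ces1g is the enzyme whose loss in mice is known for raised blood lipids and fatty liver. Control livers had 231 to 342 CPM, with a median of 318, and iTgMir483 livers 127 to 280.1, with a median of 187. The highest iTgMir483 library, replicate 1, lay above the lowest Control library, replicate 2, and without it the log2 fold change was -0.82. The fitted log2 difference was -0.68 (SE 0.160, adjusted p 0.00974). For both genes the 95% interval, -0.94 to -0.42 for Ces1e and -1.02 to -0.34 for Ces1g, reached below the 1.5-fold threshold.

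**Figure D2:**
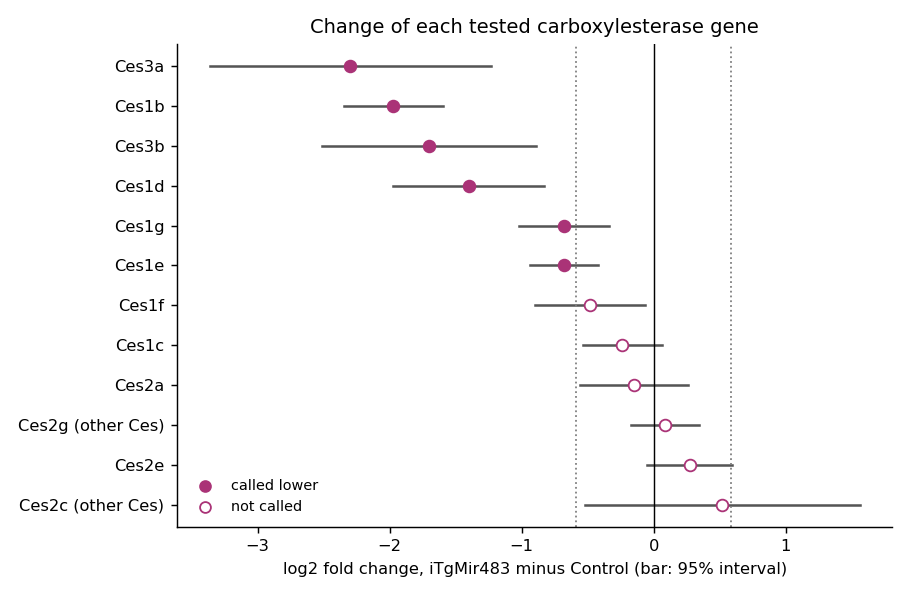
Log2 fold change of the 12 tested Ces genes, iTgMir483 minus Control, with 95% intervals (bars); filled points were called lower, open points were not called, and dotted lines mark a fold of 1.5 in each direction. Values run from -2.30 for Ces3a to 0.52 for Ces2c.

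The count of 6 depended on how the fold threshold was used. At an adjusted p under 0.05 with no fold threshold, 6 members were lower, where 7.33% of all genes were. In a test against a fold change of 1.5, 2 members were lower, Ces1b (adjusted p 0.000167) and Ces3a (0.0499), where 0.447% of all genes were. Ces1d (0.0517) and Ces3b (0.0753) lay just past that threshold. By overlap, 3 of 10 members had every iTgMir483 library below every Control library (Ces1b, Ces1e and Ces3a), where 2.83% of all genes did.

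The 4 members that were not called included the most abundant. Ces1c, the secreted carboxylesterase of mouse plasma, had 2641 to 3782 CPM in Control, with a median of 3221, and 2409 to 3537 CPM in iTgMir483, with a median of 2688. Its log2 fold change was -0.24 (SE 0.139, interval -0.53 to 0.06, adjusted p 0.253), and the groups overlapped. Ces1f, a second triacylglycerol hydrolase, had 286 to 458 CPM in Control, with a median of 344, and 198 to 433 in iTgMir483, with a median of 229. Here 5 of 6 iTgMir483 livers were below every Control liver and replicate 1 was at 433 CPM (log2 fold change -0.48, SE 0.195, adjusted p 0.0974). Without that library Ces1f was called lower, at -0.69 (adjusted p 0.00550), and without both replicate 1 libraries at -0.61 (adjusted p 0.00783).

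The Ces2 members showed no difference beyond the spread. Ces2a was at 140.0 to 349 CPM in Control, with a median of 183, and at 144 to 225 in iTgMir483, with a median of 186. Its highest value was Control replicate 1 and the next highest Control library was at 218. The log2 fold change was -0.15 (SE 0.192, interval -0.56 to 0.26, adjusted p 0.628), and 0.065 without Control replicate 1. Ces2e was at 84.3 to 158 CPM in Control and 116 to 191 in iTgMir483, with medians of 123 and 145 (log2 fold change 0.27, SE 0.151, interval -0.05 to 0.59, adjusted p 0.227).

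Coding identity was used to pick 1 pair in each subfamily and to ask whether its members moved by the same factor. The ratios use the same counts as the single-gene tests above, so they are not separate evidence of a change. The ratio of CPM was taken within each library, so that library scaling cancels, and the log2 ratios of the groups were set against each other in an exact permutation test, two-sided. Ces1b over Ces1c was 0.0422 to 0.0928 in Control, with a median of 0.0524, and 0.0124 to 0.0226 in iTgMir483, with a median of 0.0171. No iTgMir483 liver reached the Control range, and the log2 ratio differed by -1.74 (exact p 0.0022, the smallest that 6 against 6 allows, 0.0065 adjusted over the 3 pairs). The members of this pair, 88.7% identical in coding sequence and 78.0% in the promoter windows aligned above, thus moved unequally.

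Ces3a over Ces3b was 2.27 to 5.06 in Control and 1.06 to 5.15 in iTgMir483, with medians of 3.78 and 1.87. The log2 ratio differed by -0.77 (exact p 0.069, adjusted 0.10). The 5.15 was iTgMir483 replicate 1, and without it the difference was -1.02 (exact p 0.013, over this pair alone). Ces2a over Ces2e was 1.24 to 2.23 in Control and 0.885 to 1.67 in iTgMir483, a log2 difference of -0.38 (exact p 0.13, adjusted 0.13), and of -0.19 without both replicate 1 libraries (exact p 0.44).

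**Figure D3:**
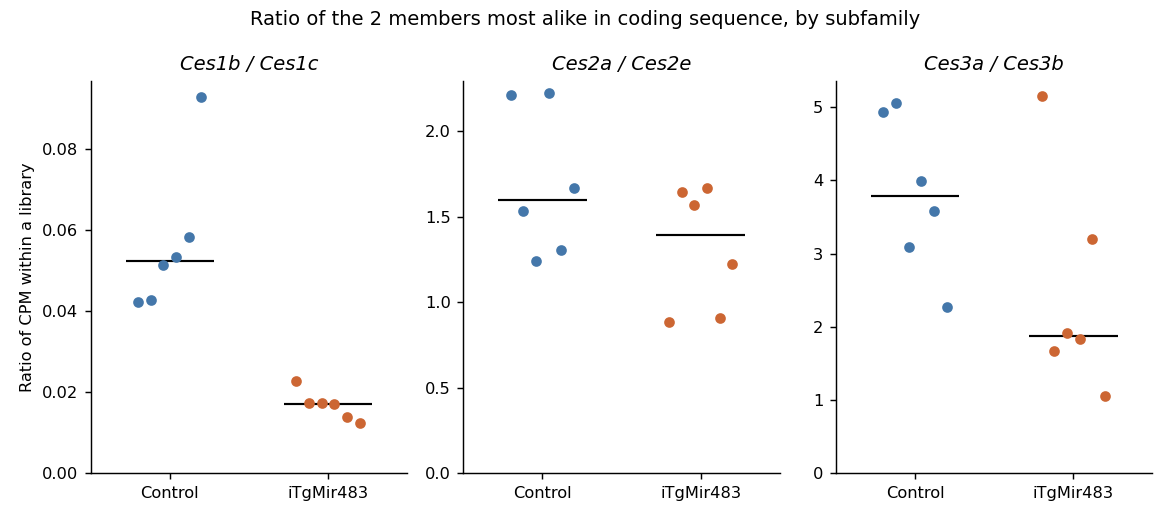
Ratio of CPM within each library for the pair most alike in coding sequence in each subfamily (points, 6 per group; bar, median; axes start at 0). For Ces1b over Ces1c every iTgMir483 library is below every Control library, and for the other pairs the groups overlap.

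Levels of different genes were compared per kilobase of annotated exon. In Control livers Ces1c was first, at 1395 ± 190.5 CPM per kilobase (SD, n = 6), followed by Ces1d at 603 ± 110.2 and Ces3a at 261 ± 145. Ces1c was above Ces1d in 6 of 6 livers, Ces1d above Ces3a in 5 of 6 with overlapping ranges, and Ces3a above the next gene, Ces1g at 129 ± 16.8, in 6 of 6. From Ces1g down to Ces3b at 71.3 ± 30.6 each neighbour's range overlapped the next, so that neighbours in the order Ces1g, Ces1f, Ces1b, Ces2a, Ces1e and Ces3b were not resolved. By the mean Ces2a stood above Ces1e, but within a liver it did so in 1 of 6, Control replicate 1. Ces2e was the lowest by the mean, at 45.0 ± 9.29, but it was below Ces3b in 5 of 6 livers with overlapping ranges.

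In iTgMir483 livers the order differed below the first pair. Ces1c, at 1184 ± 176 CPM per kilobase, and Ces1d, at 228 ± 123, were first and second in 6 of 6 livers. Ces1g, Ces1f and Ces2a came next at 80.6, 78.9 and 78.8, not separated by their ranges, but per kilobase of the longest transcript Ces1f was at 135, above Ces2a at 94.8 and Ces1g at 80.6. Ces3a, at 53.0 ± 45.2, stood between Ces2e at 54.3 ± 9.92 and Ces1e at 52.3 ± 6.67 with overlapping ranges, and Ces1b at 23.3 ± 5.28 and Ces3b at 21.9 ± 12.2 were the lowest. Ces1c took 46.9% ± 3.8 of the members' summed CPM in Control and 62.3% ± 5.23 in iTgMir483, Ces1d 20.8% ± 3.69 and 11.8% ± 4.28, and Ces3a 9.85% ± 5.10 and 3.11% ± 2.61.

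**Figure D4:**
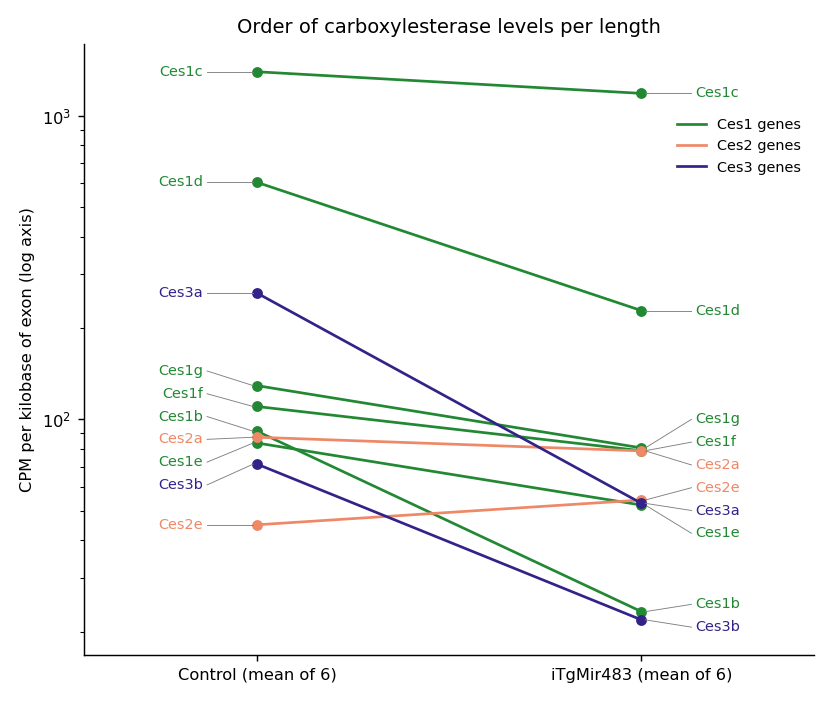
Mean CPM per kilobase of exon of each member in Control and iTgMir483 livers (6 livers each, log axis), joined by lines and coloured by subfamily; thin grey lines lead to the names. Ces3a goes from 261 to 53.0 and Ces1b from 91.5 to 23.3, while Ces1c stays first.

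Within a group the livers did not rank the members alike. Control replicate 1 was the highest Control library for Ces1f, Ces2a, Ces2e, Ces3a and Ces3b and the lowest for Ces1b, Ces1d and Ces1e. Among iTgMir483 livers replicate 4 was the highest for Ces1b, Ces1c and Ces1d, replicate 1 for Ces1f, Ces1g, Ces2e and Ces3a, and replicate 6 the lowest for Ces1b, Ces1d, Ces1e, Ces1f and Ces3a. Replicate 4 also had the lowest Alb, at 35996 CPM, and the lowest Mir483 count, 318. Whether these values have a part in its Ces1 levels was not tested.

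Of the other 10 Ces genes, 8 had too few counts to be tested. Ces2c, at 4.43 to 34.8 CPM in Control and 7.68 to 49.3 in iTgMir483, and Ces2g, at 31.9 to 48.7 and 33.8 to 47.4, were tested and not called (log2 fold changes 0.52 and 0.09, adjusted p 0.490 and 0.649). Ces2c was highest in the replicate 1 library of each group, and it shares 36.1% of its 50-base stretches with other genes, mostly the pseudogene Ces2d-ps. Ces1h and Ces5a had 0 counts in all 12 libraries, and Ces2b and Ces2f had at most 2. Ces4a was among those not tested, with counts of 6, 8, 16, 8, 10 and 5 in Control and 0, 2, 1, 0, 1 and 1 in iTgMir483. Ces1a had 2 to 11 counts in Control and 0 to 5 in iTgMir483, Ces2h 2 to 6 and 1 to 6, and the pseudogene Ces2d-ps 0 to 6 and 1 to 9.

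Few genes flanking the clusters were tested. Within 500 kb of the Ces1 cluster there were 7, of which 0 were called lower and 1 higher, Lpcat2, an enzyme of phospholipid remodelling (log2 fold change 1.16, adjusted p 0.00933). Around the second cluster 29 were tested, with 0 lower and 1 higher, Cmtm3 (log2 fold change 0.67, adjusted p 0.00528). At 2.73% lower and 8.41% higher among all genes tested, counts of 0 and 1 in lists this short are near the background. Their median log2 fold changes were -0.34 and 0.07. Inside the clusters the pseudogene Gm45727, between Ces1e and Ces1f, was at -0.46 (adjusted p 0.486), and Gm8798 among the Ces2 genes at 0.28 (adjusted p 0.748).

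**Figure D5:**
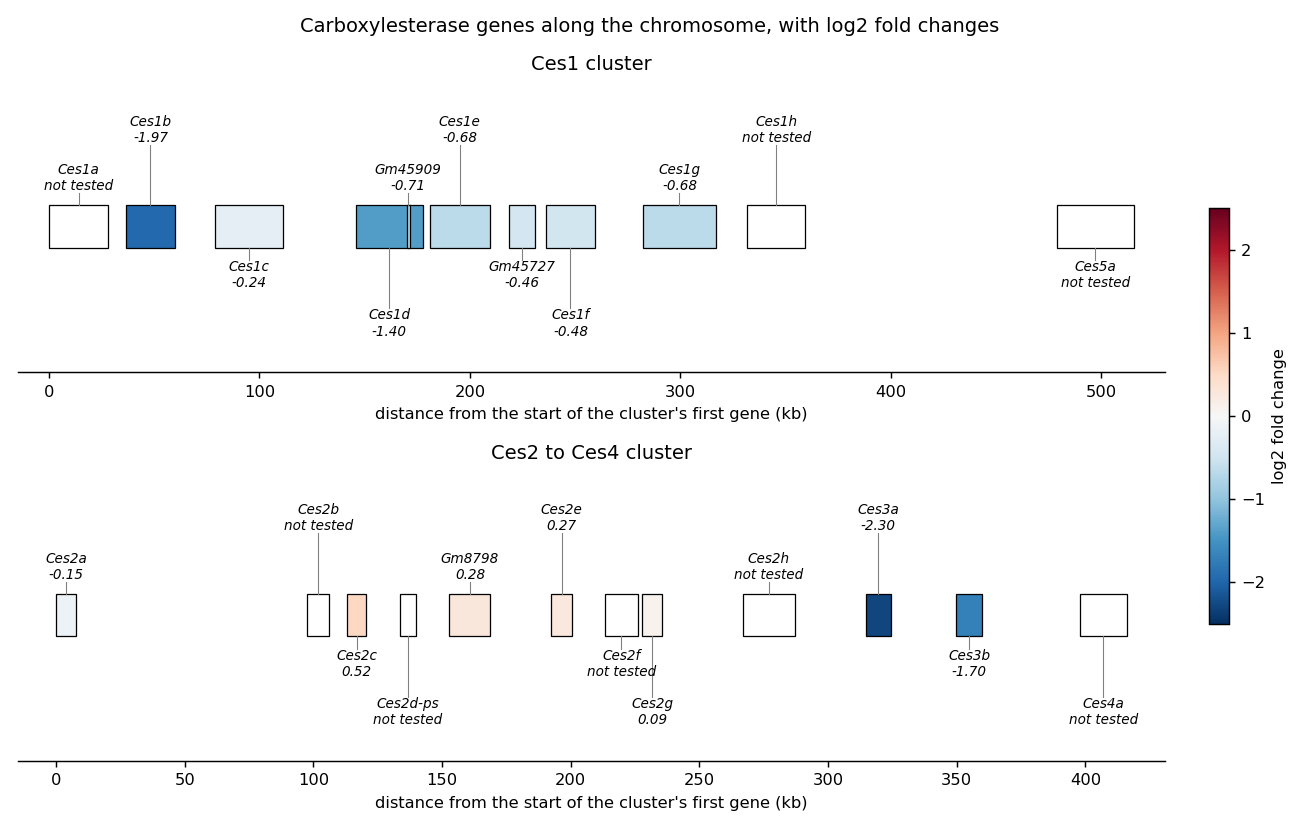
The Ces genes and other tested genes inside each cluster, drawn to scale by distance in kb from the start of the cluster's first gene, coloured by log2 fold change (white, not tested) with the value printed. The called genes are Ces1b, Ces1d, Ces1e and Ces1g in the upper map and Ces3a and Ces3b in the lower, where the Ces2 genes lie between -0.15 and 0.52.

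The promoter table held windows for 7 of 10 members, 8 windows in all since Ces1b has more than 1 start; Ces1d, Ces1f and Ces3a have none there. On both strands, TTCNNNGAA (the STAT dimer), CAAAGTCCA (an HNF4 element) and TGTTTAC (forkhead) were in 0 of 8 windows, against 8.30%, 0.475% and 3.65% of the 32851 windows of all genes. AGGTCA, the core element of many nuclear receptors, was in Ces2a (16.3% of all windows). TATAAA was in Ces1g and Ces3b (13.6%). CCAAT was in 6 of 8 windows, those of Ces1b, Ces1c, Ces1g, Ces2a and Ces3b (37.4%). The Ces1b windows overlap and hold the same CCAAT site, which is thus counted in each of them. In Ces1b and Ces1c it lies on the opposite strand in the shared stretch aattggtctagagg, identical in both windows printed above.

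Other esterases of liver moved in both directions. Of 15 further lipid ester hydrolases, 13 were tested, 3 fell and 2 rose, with a median log2 fold change of -0.03. Among all genes tested, 2.73% were lower and 8.41% higher. Those lower were Nceh1, a neutral cholesteryl ester hydrolase (-0.65, adjusted p 0.0196), Abhd6, a monoacylglycerol lipase (-0.64, 0.0211), and Aadac, arylacetamide deacetylase (-0.59, 0.0193). Those higher were Lipa, the lysosomal acid lipase (0.67, 0.000688), whose groups did not overlap, and Daglb, a diacylglycerol lipase (0.59, 0.00979). The main cytosolic triacylglycerol lipase gene, Pnpla2, had -0.29 (adjusted p 0.333) and Lipc, hepatic lipase, -0.42 (0.112).

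Of 11 other esterases of xenobiotics and small esters, all tested, 1 fell and 1 rose, with a median of -0.25. Beside 2.73% lower and 8.41% higher over all genes tested, counts of 1 in a list this short are near the background. Pon2, a paraoxonase, was lower (-0.59, adjusted p 0.000762) and Ache, acetylcholinesterase, was higher from a low level (0.448 to 1.37 CPM, log2 fold change 1.54, adjusted p 0.00618). Pon1 and Bche, the plasma paraoxonase and butyrylcholinesterase, had -0.28 (0.103) and -0.40 (0.0770).

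Of 11 regulators known for control of esterase or hepatocyte genes, 1 was called lower and 0 higher, where 2.73% and 8.41% of all genes were. Nr1i3, the constitutive androstane receptor and a sensor of foreign compounds, fell from 974 to 404 CPM in the mean (log2 fold change -1.27, SE 0.173, adjusted p 0.000478), without overlap. Nr1i2, the pregnane X receptor, had -0.25 (adjusted p 0.469), Hnf4a -0.37 (0.148), Ppara 0.08 (0.772), and Stat5a and Stat5b -0.02 (0.932) and 0.26 (0.234). Nfe2l2, the oxidant sensor Nrf2, had 0.36 (0.0406), under the fold threshold. The lists were written with results of these libraries known, so their directions are not independent evidence.

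Cell type markers moved beside these genes. Their counts stand against 2.73% lower and 8.41% higher among all genes tested. Of 7 hepatocyte markers, of which Hnf4a is also among the regulators, 1 was lower, Cps1, a urea cycle enzyme (-1.21, adjusted p 0.00476). The list summed to 119284 to 168646 CPM in Control and 60582 to 129609 in iTgMir483. Most of this sum was Alb, which was not called (-0.56, adjusted p 0.160). Of 6 Kupffer and macrophage markers 5 were higher and 0 lower, Vsig4 not being called (0.54, adjusted p 0.0527), and the list summed to 221 to 332 CPM in Control and 338 to 896 in iTgMir483. Of 5 bile duct markers 3 were higher (20.9 to 46.1 and 60.7 to 89.1 CPM), and of 5 stellate and 5 sinusoidal endothelium markers 0 were called, with sums of 305 to 400.2 and 336 to 416 CPM for the first and 233 to 269 and 208 to 286 for the second. Of 4 neutrophil markers 2 were tested and both were higher, with sums of 0.615 to 2.16 and 2.04 to 15.3 CPM. Their part in the carboxylesterase results was not tested. Of 6 intestine markers Cdx1, Cdx2, Lct and Alpi had at most 3 counts in any library and Vil1 at most 11, while Fabp2 had 913 to 2733. Of 5 adipose markers Plin1, Lep and Retn had at most 3 counts, Adipoq at most 10 and Cfd at most 21.

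Likeness to other genes was measured as the root mean square difference of log2 CPM, each gene centred on its Control mean, over 12 libraries and 10542 other tested genes that averaged 50 counts or more. For Ces3a, the member with the largest change, the nearest were Cyp2c54 (0.52), Cyp7b1 (0.54) and Gm8941 (0.79), where Ces3b was at 0.80. Cyp2c54 is a cytochrome P450 and Cyp7b1 the oxysterol 7-alpha-hydroxylase; their log2 fold changes were -1.72 (adjusted p 0.0314) and -2.29 (0.00390). For Ces1c, the most abundant per kilobase, they were Heatr1 (0.12), Serpinc1, which encodes antithrombin (0.13), and Gdap2 (0.13). The measure takes in the group difference, since both groups enter it.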

How the data were processed

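The authors extracted total RNA from liver, prepared stranded poly(A) libraries and sequenced paired ends. They used STAR both to align reads to GRCm38 and to count them per gene, and deposited raw read counts per Ensembl gene. The aligner's strand column is not stated, so overlapping genes are uncertain. How the counting treated reads shared by paralogs is not given in the sources used here. Every column belonged to a sample (0 did not). A list of gene names gave a symbol to 55141 of 55401 genes, and positions came from GENCODE M21 (GRCm38). Groups came from the sample titles, and the labels name no batch.

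Counts were tested here with edgeR 4.0.16 (limma 3.58.1, R 4.3.3): filterByExpr, TMM and the quasi-likelihood F-test of iTgMir483 against Control without covariates, adjusted by Benjamini-Hochberg over 13205 genes. The standard error is the size of the log2 fold change over the square root of F. The test was checked on simulated data. As alternatives, DESeq2 1.42.0, limma-voom, RLE size factors, 2 further filters on counts, the adjusted p alone, a test against a fold change of 1.5, the replicate number as a block, and libraries left out were tried. Levels per kilobase used the union of annotated exons, and sequences were aligned with biopython 1.88.

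Named genes were all Ces genes, Mir483, Alb, Mup20 (chosen after its values were seen), members of the lists described, called genes within 500 kb of a cluster and tested ones inside it, and the 3 genes most like each of 2 members. The members and lists were chosen with earlier results of these data known. Reads carry no molecular identifiers, so library totals count reads and not molecules.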

Additional observations from a re-analysis of the deposited data

Results flagged for a closer look

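Among 24 groups of 6 values, 2 for each of the 12 tested Ces genes, 6 held a library far from the others by Dixon's ratio (the gap to the nearest library over the whole range, above the 95% critical value), where chance gives about 1.2. In iTgMir483 replicate 4, Ces1c was at 3537 CPM against a next highest of 2733 (ratio 0.713) and Ces1d at 1117 against 552 (ratio 0.747). In iTgMir483 replicate 1, Ces1f was at 433 CPM against 262 (ratio 0.727) and Ces2c at 49.3 against 14.8 (ratio 0.828). In Control replicate 1, Ces2c was at 34.8 CPM against 11.6 (ratio 0.762). In Control replicate 2, Ces1g was at 231 CPM, under the next lowest at 309.6 (ratio 0.708). The flags of neighbouring genes in 1 library are not independent of each other.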

How the results depend on the processing

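Over 200 combinations of a member and an alternative, 192 kept both the direction and the side of the threshold. Of 10 members, 6 were called lower and 0 higher with RLE size factors, no filter on low counts, at least 10 counts in every library, DESeq2, limma-voom and the adjusted p alone; leaving out 1 library gave 6 to 7 lower and 0 higher, and leaving out both replicate 1 libraries gave 7 and 0. The test against a fold change of 1.5 left 2, since it asks for more than 1.5-fold beyond the error. Ces2a ran from -0.24 to 0.065 when 1 library was left out, positive without Control replicate 1 alone, and was 0.092 without both replicate 1 libraries. Without 1 library the log2 ratio difference was -1.83 to -1.58 for Ces1b over Ces1c, -0.46 to -0.27 for Ces2a over Ces2e and -1.02 to -0.56 for Ces3a over Ces3b; without both replicate 1 libraries the last was -0.94 (exact p 0.024). These ratio settings were chosen after seeing the data.

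With the replicate number as a block 6 members were called lower and 0 higher. Deviations of same-numbered libraries correlated at 0.03 to 0.44, over 0.1 in 2 of 6 pairs, and highest for replicate 1. Differently numbered libraries were not correlated for comparison, so whether the numbers pair the samples was not tested. Per kilobase of the longest transcript, Control levels moved beyond 1 SD for Ces1c (1772) and for Ces1f, which at 188 stood above Ces1g.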
